A study of Homo sapiens with 52 samples.

Results

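The subject is human chromosome 17 in single KBM7 cells, described by its contacts with the nuclear lamina. Its members are all 100 kb bins of chromosome 17 (hg19) that had a value in every cell: 779 of the 812 bins listed for this chromosome and of the 26584 measured bins of the whole genome. The position of a bin chose it, not its measured value. KBM7 is a long-established cell line from a human chronic myeloid leukaemia. The cells were of clone 14, with a labelled ploidy of 2N, and carried Dam fused to Lamin B1, a protein of the lamina. Methylation was induced with 0.5 nM Shield1, and small cells in which both Fucci reporters of the cell cycle were on were sorted one by one. The labels describe 52 cells in 1 group, 51 of which were analysed here, and name no separate cultures. The clone therefore counts as 1 sample: SDs describe the spread over these cells, and no p-value is given.

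The nuclear lamina is a protein mesh beneath the inner nuclear membrane. DNA stretches that touch it, called lamina-associated domains, tend to be long, poor in genes and rarely transcribed. Dam methylates adenine in the motif GATC, so DNA close to the fusion protein becomes marked and can be cut out, amplified and sequenced. Chromosome 17 is known as one of the gene-rich human chromosomes. It carries the HOXB homeobox genes of body patterning, the type I keratin genes of epithelia and ERBB2, a growth factor receptor gene. Each deposited value divides the signal observed in a bin by the signal expected there (observed over expected, OE), and a bin was taken as in contact at an OE of at least 1. The contact frequency of a bin is the percentage of the 51 cells in which it was in contact.

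Depth limits single calls. Whole reads could be recovered from the ratios and ranged from 50978 in cell 9 to 316463 in cell 26 over the genome. On chromosome 17 alone a cell held 172 (cell 21) to 3735 (cell 26) reads, and the median cell 1246. For a bin of the genome's median expected number, the contact threshold corresponds to 2.12 reads in the shallowest cell and to 13.2 in the deepest. No read was found in any cell in 171 of the 779 bins, and contact cannot be judged there in the same way because their expected number is unknown. The longest inner stretch without values, which in hg19 holds the centromere, ran from 22300001 to 25200000 and left 222 bins on the short arm and 557 on the long arm.

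Chromosome 17 had less lamina contact than the genome in every cell. In a single cell, the share of its bins in contact had a lowest value of 0.642% in cell 21 (5 bins, 95% Wilson interval 0.274% to 1.49%), a median of 9.63% and a highest value of 16.9% in cell 12 (14.5% to 19.7%). These intervals cover counting error over bins and treat neighbouring bins as independent, which they are not. The mean was 9.54% ± 3.56 (SD, n = 51), and 5.14% when contact was called at an OE of at least 2. Over the bins with a read in any cell it was 12.2% ± 4.57. The share lay between 5% and 15% in 42 of 51 cells, below in 5 and above in 4. Each cell's share of the whole genome was higher, by a mean of 21.9 points (chromosome 17 minus genome -21.9 ± 3.99), and the direction was the same in all 51 cells. Over bins with a read the mean difference was -21.8 points. Relative to the genome of the same cell, chromosome 17 reached a ratio of 0.302 ± 0.107.

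Other gene-rich or similarly short chromosomes served as a comparison within the same cells. Chromosome 19 lay at 2.20% ± 2.10 of its bins, chromosome 16 at 17.7% ± 6.90 and chromosome 20 at 22.5% ± 6.37 (SD, n = 51 each). Chromosome 17 exceeded chromosome 19 by 7.34 points ± 3.71 and was higher in 49 cells and lower in 2. It stood below chromosome 16 by a mean difference of -8.11 points ± 6.59, in 45 of 51 cells, and below chromosome 20 by -12.9 points ± 6.28, in 49 of 51 cells. The spread over cells overlapped between chromosomes 17 and 16, where 6 cells had the opposite order.

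**Figure D1:**
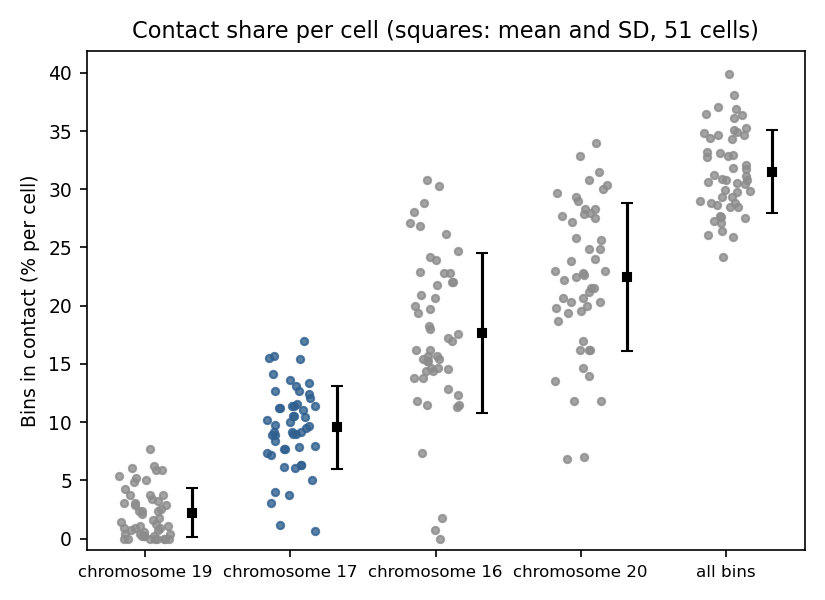
Percentage of bins in contact per cell on chromosomes 19, 17, 16 and 20 and over all measured bins; each point is 1 of 51 cells, and squares with bars give the mean and SD. Chromosome 17 (mean 9.54%) lies between chromosome 19 (2.20%) and chromosome 16 (17.7%), and every cell's value on it is below that cell's value over all bins.

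Most bins of chromosome 17 were never called. Of its 779 bins, 578 (74.2%) were in contact in no cell, against 38.7% of all measured bins, and 621 (79.7%) in at most 5% of cells, against 46.7%. Among the 578 were the 171 bins without a read in any cell, where contact cannot be judged in the same way. Reads were found in 608 of the 779 bins and in 24599 of the 26584 measured bins of the genome. Bins without reads therefore weigh more in the chromosome 17 percentages. A frequency of 20% was reached by 122 bins (15.7%; genome 42.9%), one of 50% by 68 (8.73%; genome 32.1%) and one of 80% by 27 (3.47%; genome 20.9%). The last count depends on depth and threshold: it was 14 after thinning all cells to one depth, 57 at an OE of at least 0.5 and 0 at an OE of at least 2. Among the chromosome 17 bins with a read, 20.1% reached 20% of cells and 4.44% reached 80%. Just 2 bins (0.257%) reached 90%, against 12.8% of the genome. No bin was in contact in every cell, which 0.824% of the genome's bins were. On chromosome 16, 221 of 785 bins (28.2%) reached 20% and 70 (8.92%) reached 80%. On chromosome 19 the counts were 27 of 560 (4.82%) and 0. The 122 bins held 3529 of the 3792 contacts of the chromosome, or 93.1%, where a contact is 1 bin in 1 cell. Bins chosen by the same rule held 95.5% of the contacts of the whole genome, so this share was not higher on chromosome 17. Values close to the threshold were evenly split, with 225 at an OE from 0.9 to under 1 and 228 from 1 to under 1.1. Close to the 20% limit, 2 bins were in contact in 10 cells and 2 in 11.

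**Figure D2:**
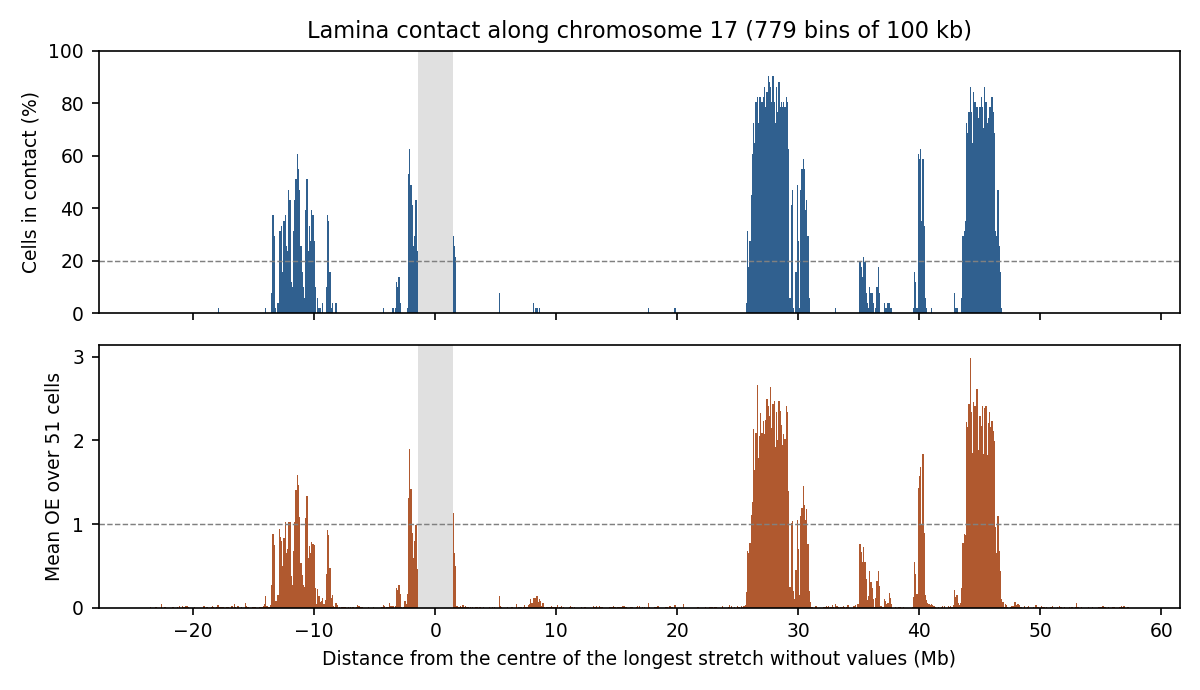
Percentage of the 51 cells in contact (top) and mean OE over cells (bottom) for the 779 bins of 100 kb, plotted by distance in Mb from the centre of the longest stretch without values (grey band); dashed lines mark 20% and an OE of 1. Contact forms a low group of peaks on the short arm, a narrow one beside the grey band and 2 broad ones on the long arm, where 27 bins reach 80%. Smaller peaks, up to 62.7% of cells, lie between the 2 broad ones. Long flat stretches lie at both ends and in the middle of the long arm.

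A contact region was defined as a run of neighbouring bins that each reached 20% of cells. There were 16 on the chromosome, 10 of them at least 3 bins long. Their lengths were close to those of the 1215 such regions of the genome, with a median of 4.5 bins against 5. Regions of 1 or 2 bins made up 37.5%, against 34.9% in the genome. A pair on the long arm stood apart in length, with 33 and 31 bins. Across the genome, 4.77% of the regions had at least 33 bins and 5.60% at least 31. Together this pair took up 8.22% of the measured bins and 62.2% of the contacts of chromosome 17. Without it, the share of bins in contact on the rest of the chromosome was 3.94% ± 2.49 (SD, n = 51). The pair was defined by its contact in these same calls. A high share of contacts inside it and a lower share outside follow in part from that choice.

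The longer region covered 3.3 Mb from 49700001 to 53000000. In a single cell 0% (cell 21) to 100% of its bins were in contact, with a median of 84.8% and a mean of 77.1% ± 23.9 (SD, n = 51). All bins were in contact in 5 cells and none in 1, and 44 cells had contact in at least 50% of the bins. Its mean OE per cell had a lowest value of 0.185 in cell 21, a median of 1.96 and a highest value of 4.35 in cell 29. Of its 33 bins, 20 reached 80% of cells. From textbook maps, this gene-poor part of the long arm carries CA10, a carbonic anhydrase-related protein of the nervous system, and KIF2B, a kinesin of the spindle. In the RefSeq table the protein-coding genes follow one another here as UTP18, CA10, KIF2B and TOM1L1.

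The 4 bins of highest contact frequency on the chromosome lay in this region. The bin from 51200001 to 51300000 was in contact in 46 of 51 cells (90.2%), with an OE of 0.256 in the lowest cell, a median of 2.10 and 6.43 in the highest. The bin from 51600001 to 51700000 also reached 46 cells, with OE values from 0 over a median of 2.27 to 6.27. Bins starting at 51300001 and 52100001 followed with 45 cells each (88.2%), and the bin starting at 50900001 with 44. That count was shared by 5 bins, 3 in this region and 2 in the other long one. In the first of these bins the lowest OE belonged to cell 21, which had no contact in the region.

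The edges of the longer region differed in shape. At its outer edge contact stopped within 1 bin: 32 cells were in contact in the last bin inside and 3 in the next bin outside, from 53000001 to 53100000. All 3 of those cells were also in contact inside, and 29 cells had contact inside alone. The mean OE dropped from 1.39 to 0.246 over this step, while the expected numbers of both bins were alike (343 and 311). At the edge towards the centromere the frequency climbed over several bins, from 14 cells in the first bin to 23, 31 and 37 cells in the following ones. Just outside that edge 9 cells were in contact, and 16 in the bin beyond.

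Beyond the sharp edge, contact resumed in pieces. Regions of 2, 2 and 7 bins lay between 53100001 and 54600000, parted by bins in contact in at most 8 cells. The longest of them, from 53900001 to 54600000, had 46.8% ± 34.4 of its bins in contact (SD, n = 51), with a median of 42.9%, all bins in 6 cells and none in 10. The bin before it, from 53800001 to 53900000, was in contact in 1 cell, and the first bin inside in 24. Taken as a block, the 11 bins of these 3 regions had at least 50% in contact in 23 cells, and in each of those 23 cells the longer region also had at least 50%, as it had in 44 of all 51 cells.

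The other long region covered 3.1 Mb from 67300001 to 70400000, with 67.0% ± 26.9 of its bins in contact (SD, n = 51). The lowest cell had 0% (cell 28), the median was 77.4% and the highest 100%. All bins were in contact in 2 cells and none in 1, and 39 cells reached 50% of the bins. Its mean OE per cell ran from 0.207 in cell 28 over a median of 1.87 to 3.97 in cell 16. Of its 31 bins, 7 reached 80% of cells, and after thinning 4 did, against 10 in the longer region. Its most frequent bin was at 86.3%. This part of the long arm is known for the wide gene-free interval before SOX9, a transcription factor of cartilage and gonad development whose distant enhancers lie there, and for KCNJ2, a potassium channel gene. The RefSeq table lists MAP2K6, KCNJ16, KCNJ2, SOX9 and SLC39A11 as successive protein-coding genes.

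This region had a core with shoulders. The core of bins at 50% of cells or more ran from 67600001 to 70000000 (2.4 Mb) with 77.0% ± 28.8 of its bins in contact. The corresponding core of the longer region was 3.1 Mb long, from 49900001 to 53000000, with 79.7% ± 24.4. The 3 bins before the shorter core were in contact in 15, 16 and 18 cells, and the first core bin in 37. At the other end the last 4 bins had 16, 15, 24 and 13 cells. Outside, contact fell to 3 cells in the bin before the region and to 8 and 1 cells in the pair of bins after it. The difference between these regions was small: the longer exceeded the shorter by 10.0 points ± 24.0 (SD, n = 51), in 35 cells, with the opposite order in 16.

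**Figure D3:**
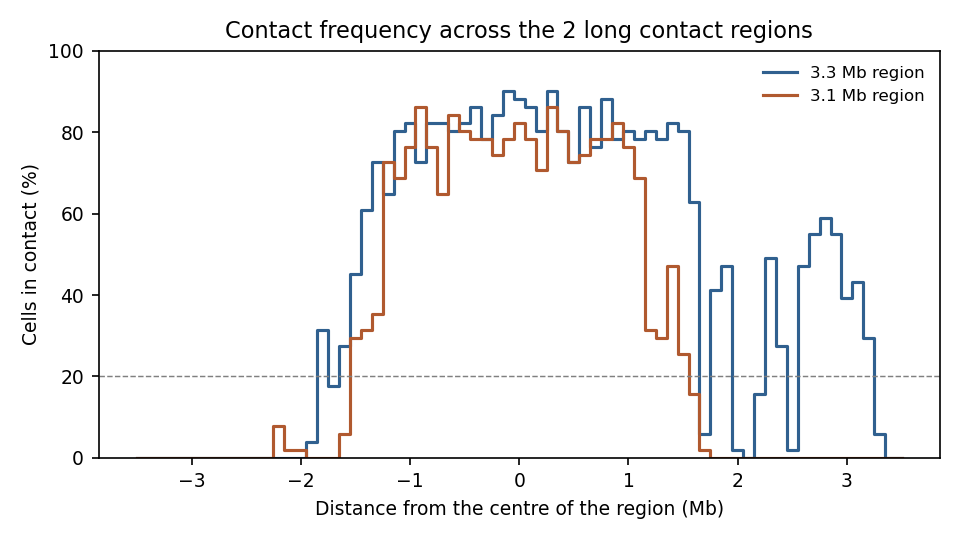
Percentage of 51 cells in contact per 100 kb bin, by distance in Mb from the centre of the 3.3 Mb region (blue) and of the 3.1 Mb region (brown); the dashed line marks 20%. The blue line drops from 32 cells (62.7%) to 3 cells (5.88%) at its right edge and returns in smaller peaks, while the brown line falls to shoulders of 13 to 24 cells before it ends.

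Between these regions lay one more of at least 3 bins, from 63600001 to 64200000. It had 51.6% ± 35.2 of its 6 bins in contact (SD, n = 51), with a median of 66.7%, all bins in 8 cells and none in 11. Its edge was abrupt, with 1 cell in contact in the bin before it and 31 in its first bin. At its other end 17 cells were in contact inside and 3 in the next bin. The mean OE per cell ran from 0 to 6.42 with a median of 1.20, the highest being cell 43. Textbook maps place CEP112, a gene for a centrosomal protein, in this part of the arm, and RefSeq lists it between AXIN2 and APOH.

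A sparse group of contacts lay from 58800001 to 60500000. All but 1 of its 17 bins stayed under 20% of cells, the exception being the bin from 59100001 to 59200000 with 11 cells. The span was bounded after the values were seen, by 3 neighbouring bins without contact on either side. Contact was found there in 16 cells and absent in 35. It held 88 contacts, of which cell 15 alone had 16.

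On the short arm, 6 contact regions with 28 bins in all lay between 10300001 and 15000000. Together they had 37.1% ± 32.3 of their bins in contact (SD, n = 51). The lowest value was 0%, found in 10 cells, the median 32.1% and the highest 100% in cell 12, so cells covered the whole range. The 4 regions of at least 3 bins had means of 32.0% ± 39.4 (from 10800001 to 11100000), 35.3% ± 36.2 (from 11200001 to 11800000), 44.8% ± 37.1 (from 12000001 to 12700000) and 34.8% ± 35.2 (from 13000001 to 13800000). None of these 4 was without contact in fewer than 12 cells. Their most frequent bin, at 60.8% of cells, lay in the third of them, and no bin of the short arm reached 80%. This stretch is known for the skeletal muscle myosin heavy chain genes MYH8, MYH4, MYH1 and MYH2, neighbours in the RefSeq table, for DNAH9, a dynein of cilia, and for MYOCD, a coactivator of smooth and heart muscle genes.

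Beside the centromeric stretch, contact was measured less well. The region from 21500001 to 22300000 had 40.9% ± 28.2 of its bins in contact and the one from 25200001 to 25500000 had 25.5% ± 28.0 (SD, n = 51). Their expected numbers were low, with medians of 97.5 and 99, against 318 over chromosome 17, so that a contact there rests on few reads. Bins within 5 Mb of the stretch were in contact in 4.63% ± 2.99, against 10.3% ± 3.80 of the other bins, and were lower in 49 cells. On the short arm side this was 7.64% ± 5.44 and on the long arm side 1.69% ± 1.81, with the short arm side higher in 44 cells.

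The long arm as a whole had 10.6% ± 3.64 of its bins in contact and the short arm 7.02% ± 5.65. The difference of 3.53 points ± 5.37 was smaller than its spread, with the long arm higher in 35 cells and lower in 16. The 2 long regions, which were defined by their contact, both lie on the long arm. The other bins of that arm stood at 2.55% ± 1.77, a value that is lower because of how they were chosen. In 3 cells the short arm had no contact at all, while every cell had some on the long arm.

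The ends of the chromosome had no contact in any cell. Of the 101 bins within 5 Mb of either end, 58 held reads, and 0 of their 2958 values reached the threshold, so the limit of 3 counts puts an upper bound of 0.101% on their share. That bound covers counting error only and treats neighbouring bins and cells of one clone as independent. The highest OE among them was 0.982, just under the threshold. The other bins of the chromosome were in contact in 11.0% ± 4.10 (SD, n = 51), and the ends were lower in all 51 cells, by -11.0 points on average.

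Long runs of bins in contact in at most 5% of cells lay at both ends and in the middle of the long arm. The first ran 10.7 Mb to the end of the long arm, from 70500001 to 81195210, with 1 contact in 5457 values, in cell 49. The second took up the first 10.2 Mb of the short arm, up to 10200000, with 2 contacts in 5202 values. The third ran 9.8 Mb from 34700001 to 44500000, with 2 contacts in 4998 values. Both ends of the third were set by bins without a value. Passing over such bins joined it to its neighbours, and the joined stretch was then the longest, at 20.4 Mb from 29100001 to 49500000, with 9 contacts in 10251 values. Without that joining, the 3 stretches together held 39.4% of the measured bins and 0.132% of the contacts. That low share of contacts follows from the rule that chose the stretches. The third is the part of the long arm where textbook maps place ERBB2 and the type I keratin genes such as KRT14. Between 32 and 34 bins of each stretch held no read in any cell, while the median expected number of their remaining bins was 304 to 322, near the 316 of the genome.

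Contact outside the frequent places was rare. Bins in contact in more than 5% but under 20% of cells numbered 36 and held 208 contacts. A further 43 bins were in contact in at most 5% of cells, 31 of them in a single cell, and held 55 contacts. These came from 21 cells, and cell 12 had 10 of them.

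Within a cell, the contact calls on chromosome 17 were broken into many pieces. A cell had 4 to 37 uninterrupted runs of bins in contact, with a median of 19. The mean length of the 964 runs was 0.393 Mb, and 45.2% were 1 bin long. Runs were counted at each cell's full depth, and a single bin under the threshold splits a run. For a bin of median expected number the threshold is 2.12 reads in the shallowest cell, so sparse reads can also break runs. How far depth set the number of runs was not tested. The cells are labelled 2N, and the calls do not tell copies of the chromosome apart. The longest run of a cell ranged from 0.2 to 3.5 Mb with a median of 2.4 Mb. It overlapped the 3.3 Mb region in 32 cells and the 3.1 Mb region in 16.

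**Figure D4:**
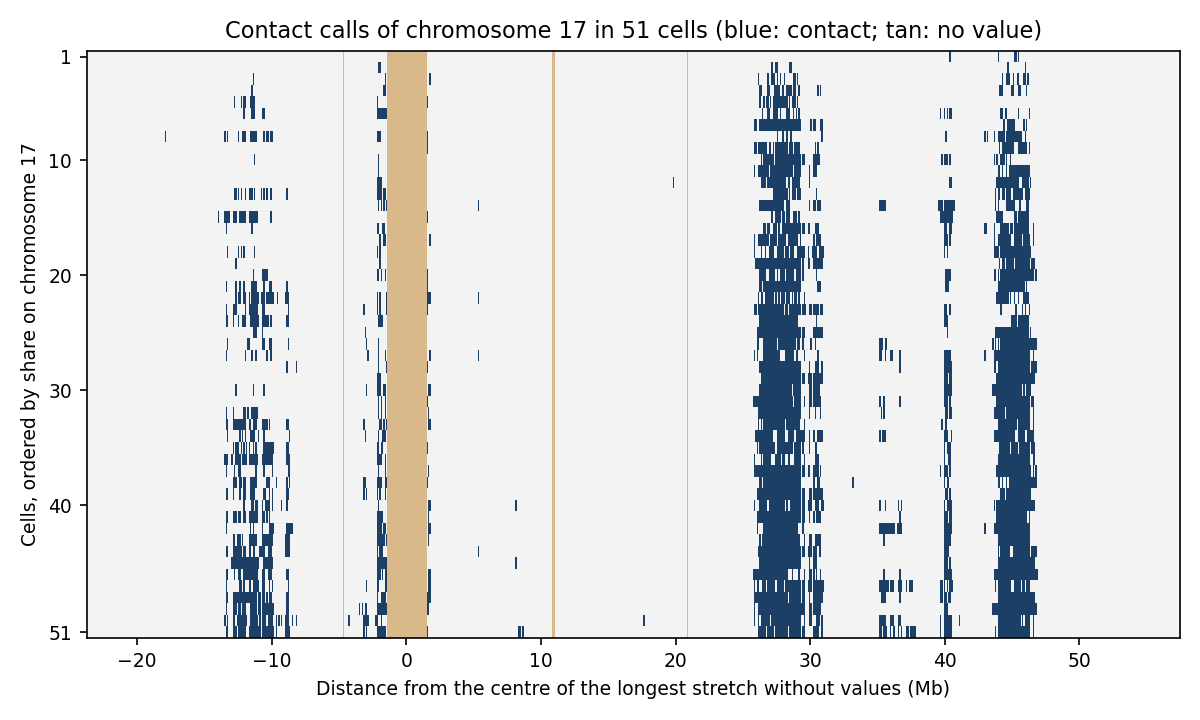
Contact calls in each of the 51 cells (rows, ordered from the lowest chromosome 17 share at the top, 0.642%, to the highest at the bottom, 16.9%) along the chromosome, by distance in Mb from the centre of the longest stretch without values; blue is contact, grey no contact and tan no value. The 2 broad columns on the long arm are filled in most rows. The short arm group from 10300001 to 15000000, left of the tan band, is empty in 10 cells and complete in 1.

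The contact of both long regions was set side by side within cells. With a limit of 50% of a region's bins, chosen after the values were seen, 44 cells passed in the 3.3 Mb region and 39 in the 3.1 Mb region. Of these, 38 passed in both, 6 in the 3.3 Mb region alone, 1 in the 3.1 Mb region alone and 6 in neither. Across the 51 cells the contacted percentages of the regions were related with r = 0.558 (Pearson) and rho = 0.415 (Spearman). Without cells 21 and 25, farthest from the median, r was 0.541. After removal of each cell's genome share r was 0.519, and 0.522 after thinning all cells to one depth. The cells share a clone, and a cell's values share its library and depth, so these figures are descriptions.

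The 6 short arm regions from 10300001 to 15000000 were compared with the others in the same way. The block of 6 short arm regions had r = 0.225 and rho = 0.192 with the 3.3 Mb region and r = 0.299 and rho = 0.279 with the 3.1 Mb region (n = 51 cells). With the region from 63600001 to 64200000 it had r = 0.290 and rho = 0.262, and with the regions beside the centromeric stretch r = 0.589 and rho = 0.578. After thinning, the r with the regions beside the centromeric stretch was 0.485. The longer of those, from 21500001 to 22300000, also lies on the short arm. Within the long arm, the region from 63600001 to 64200000 had r = 0.329 and rho = 0.197 with the 3.3 Mb region. With the 3.1 Mb region it had r = 0.443 and rho = 0.469. With the pieces just beyond the outer edge of the 3.3 Mb region it had r = 0.373 and rho = 0.330. Those pieces had r = 0.431 and rho = 0.439 with the 3.1 Mb region. The differences between these values were not tested. The highest of the 15 pairs of blocks was the 3.3 Mb region with the pieces just beyond its outer edge, at r = 0.632 and rho = 0.688.

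**Figure D5:**
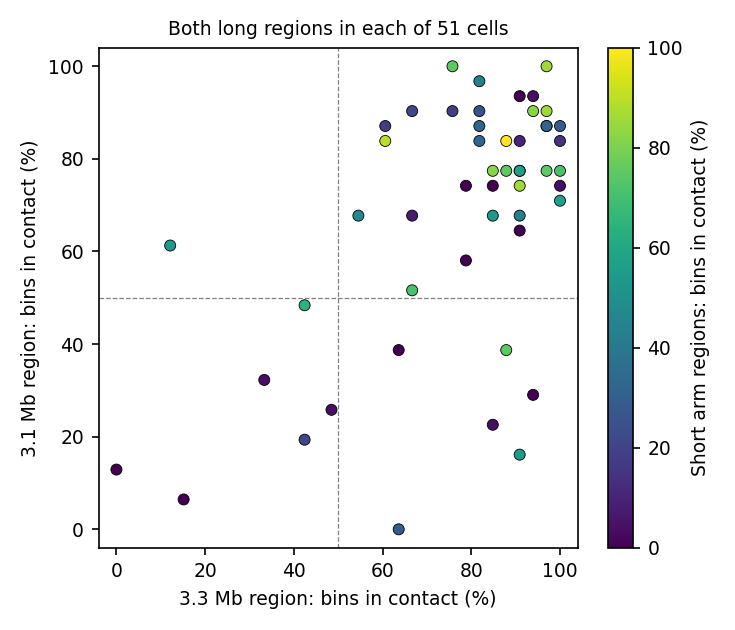
Percentage of bins in contact in the 3.3 Mb region (horizontal) and the 3.1 Mb region (vertical) in each of 51 cells. Colour gives the percentage in contact over the 6 short arm regions from 10300001 to 15000000, and dashed lines mark 50%. Of the 51 cells, 38 lie above 50% in both long regions and 6 in neither, and cells of low and high short arm contact both occur among the 38.

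A pair of cells stood low on this chromosome. Cell 21 had contact in 5 of 779 bins although 29.7% of its whole genome was in contact, and in its 3.3 Mb region none of the 33 bins was called. Cell 31 had 9 bins (1.16%), with 30.6% of its genome in contact. Cell 31 also had no contact on chromosome 16, while cell 21 had 14.5% there. Reads on chromosome 17 made up 0.183% of all reads in cell 21 and 0.149% in cell 31, against a mean of 0.873% ± 0.357 (SD, n = 51). In rarely contacted bins, reads on chromosome 17 made up 2.21% of such reads in cell 21 and 0.404% in cell 31. The mean of this measure was 2.12% ± 1.29 (SD, n = 51), with a highest value of 5.15% in cell 12. Its lowest value, 0.110%, was in cell 52, which had 9.11% of its chromosome 17 bins in contact. Cell 21 held 172 reads and cell 31 held 285 on all of chromosome 17, so their percentages rest on few reads. The rarely contacted bins were themselves defined by these calls.

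Where chromosome 17 was in contact, its signal was on average somewhat lower than elsewhere. The median OE of its contacted bins was 2.12 ± 0.523 and that of other chromosomes 2.47 ± 0.214 (SD, n = 51). The difference of -0.353 ± 0.499 was within its spread over cells, with chromosome 17 lower in 38 cells and higher in 13. Each cell counted equally, although cell 21 had 5 contacted bins on chromosome 17 and cell 31 had 9. Cell 31 had the lowest difference, -1.51, and cell 29 the highest, 0.997. The call itself limits all these values to an OE of at least 1.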

How the data were processed

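Per the labels' protocols, DNA of single cells was digested with DpnI, ligated to adapters and amplified by PCR. The submitters' processing notes name Cutadapt, Bowtie2 2.1.0 and hg19. Per 100 kb bin and cell, the authors deposited a ratio of observed over expected signal; how the expected profile was made is not given in the sources used here. Cell 47 was not analysed here. Reads were recovered as whole multiples (tolerance 0.02 reads) of a step set by a factor of the cell and an integer of the bin (its expected number). With these steps 100% of values above 0 came out whole. Each bin's step was chosen to make its values whole, so this percentage does not check the recovery. Where few cells have a value above 0, a bin's reads and expected number can be off by a common factor. Bins without reads have no expected number. On simulated data over 24599 bins, 99.999% of values above 0 were recovered. The simulation used the same model and the recovered expected numbers, so it does not check the model itself. Thinning drew reads without replacement down to 50978 per cell. Python 3.11.15, numpy 2.4.6 and scipy 1.17.1 were used.

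The members, lists and rules were chosen with earlier results of these data known. Named were all contact regions of at least 3 bins, the 5 bins of highest frequency and the 3 longest runs at 5% of cells or less. Alternatives were the contact threshold at 0.5 or 2, calling each cell's top 30% of bins, bins with reads, an expected number of at least 100, thinning, odd-numbered or even-numbered cells, omission of the 5 deepest cells, 500 kb bins, and other end widths and region limits. Joining runs across bins without values, and the counts at 80% of cells per long region, were added after seeing the data. Genes are background: names and order come from a RefSeq table of another build (GRCh38.p14), no gene was assigned to a bin, and planned gene lists were not run. All genes looked up (22 of 22) were in that table. No sequence is printed, since a genome of the build hg19 was not used here.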

Additional observations from a re-analysis of the deposited data

How the results depend on the processing

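Of 193 values, 179 moved by less than the spread over cells or, for shares of bins, by less than 1.5 times, 14 moved by more and none changed direction. At an OE of at least 2 the chromosome 17 share was 5.14%, its difference from the genome -14.9 points, the end difference -5.90 points, bins reaching 20% of cells 8.73% and bins reaching 80% of cells 0%, the share of contacts in contact regions 81.3%, and the 3.3 Mb region stood at 48.5%. Wide SDs hide other shifts at that threshold: all 10 named regions fell by 1.53 to 3.00 times, and the differences from chromosomes 16, 19 and 20 shrank to -4.80, 4.38 and -7.52 points. At an OE of at least 0.5 the difference from the genome was -26.0 points. Bins reaching 80% of cells also moved under other settings, with 7.32% at an OE of at least 0.5, 2.18% for the top 30% of bins, 1.80% after thinning, 5.26% in even-numbered cells and 6.37% of 500 kb bins, against 3.47%. Contact regions defined at 50% of cells held 68.1% of contacts. The shifts with the OE threshold and the region limit follow from those limits; for the others the cause was not tested. Named regions and their contact shares were not run with 500 kb bins. Depth limits single bins most in cell 9.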

Other observations

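The chromosome 17 contact share was set against other values of the same 51 cells. With reads per cell it gave r = 0.229 (Pearson) and rho = 0.201 (Spearman), and r = 0.0950 without the 2 cells farthest from the median depth. With the contact share of the genome, r was 0.372 and rho 0.356 (r = 0.319 without 2 such cells). With chromosome 16 r was 0.344 (rho 0.169, and 0.212 for r without cells 25 and 31), with chromosome 19 r was 0.223 (rho 0.211, and 0.105 for r without cells 26 and 33), and with chromosome 20 r was 0.304 (rho 0.318, and 0.298 for r without cells 18 and 43). After removal of each cell's genome share the r values for chromosomes 16, 19 and 20 were 0.217, 0.137 and 0.0847. The cells share a clone, and each pair of values shares a library and its depth, so these are descriptions of these cells.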
